A study of Homo sapiens with 12 samples.

Results

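The guanylate-binding protein genes GBP1, GBP2, GBP3, GBP4 and GBP5 were followed in RNA from tumor-associated macrophages (TAMs) that had shared medium with pancreatic cancer cells. Members were taken by symbol, and these 5 were found among the 58735 genes of the count table. All 5 passed the filter on low counts, as did 16046 genes in all. The family was singled out because it was low in TAMs beside MMP28-overexpressing cells, so every comparison with the control group is given for these genes as a description, with no test.

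The TAMs were THP-1 cells, a human acute monocytic leukemia line, differentiated with the phorbol ester PMA. A porous Transwell insert kept them apart from the AsPC-1 cells, a human pancreatic cancer line, with which they were cultured. There were 4 groups of 3 libraries. In the control group, named NC in the labels, the AsPC-1 cells carried an empty lentiviral vector. In the OE-MMP28 group they stably overexpressed MMP28, a secreted matrix metalloproteinase. The other 2 groups had OE-MMP28 cells together with a neutralizing antibody against the chemokine IL-8 (anti-IL-8) or against the growth factor VEGFA (anti-VEGFA). No group is named for a control antibody. All TAMs came from 1 line, and the labels do not say that libraries of a group came from separate cultures, so the spread between them may be technical. What differs between the AsPC-1 cultures besides MMP28 cannot be told apart from MMP28 itself.

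Library totals lay between 15852346 and 18701195 counts, at which 3 counts correspond to 0.160 to 0.195 CPM (counts scaled to a common library total, after TMM, edgeR's correction for library composition). OE-MMP28 replicate 3 and anti-VEGFA replicate 2 lay farthest from their group means over all genes, with root mean square log2 deviations of 0.336 and 0.358. OE-MMP28 replicate 2 (0.331) and anti-VEGFA replicate 1 (0.330) were close behind. Mitochondrial genes took 17.8% of counts in anti-VEGFA replicate 2 against 6.92% in the lowest library. Of 10 macrophage markers 9 passed the filter, and their summed level was 3302 to 3630 CPM in control, 3693 to 5108 in OE-MMP28, 4377 to 5187 with anti-IL-8 and 4283 to 4511 with anti-VEGFA. The exception was CD68, a defining macrophage marker, which had 0 to 5 counts in every library. In the annotation, 81.7% of its exonic bases are shared with another gene of the same strand. Within the macrophage sum CD14 rose most, from a mean of 752 CPM in control to 1310 in OE-MMP28. The means of ITGAM (557 and 496 CPM) and CSF1R (166 and 148) were lower in OE-MMP28. Epithelial markers of the AsPC-1 cells summed to 4.51 to 5.39 CPM in control and to 2.31 to 4.83 CPM in the other groups, and EPCAM had 0 counts throughout. Most of that sum was MUC1, at 3.36 to 3.85 CPM in control. The keratins KRT8, KRT18 and KRT19 together had 0.118 to 0.289 CPM in control, 0.110 to 0.312 in OE-MMP28, 0.130 to 0.534 with anti-IL-8 and 0.373 to 0.762 with anti-VEGFA. KRT7 alone had 0.462 to 1.12 CPM in control, 0.234 to 0.749 in OE-MMP28, 0.901 to 1.30 with anti-IL-8 and 0.475 to 0.889 with anti-VEGFA. MMP28 itself had 0 counts in all 12 TAM libraries.

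Guanylate-binding proteins are large GTPases of the dynamin superfamily that interferons, above all interferon-gamma, switch on in macrophages and many other cells. They gather on intracellular bacteria and on the vacuoles of parasites, break open or coat these compartments, and help to start inflammasome signalling and pyroptosis, a lytic form of cell death. GBP1, GBP2 and GBP5 end in a CaaX box, a short signal for the attachment of a lipid anchor, whereas GBP3 and GBP4 lack it and are drawn to membranes by other family members. The genes are turned on through the Janus kinases and transcription factors such as STAT2, IRF1 and IRF9. Interferons act on promoters through the interferon-stimulated response element (ISRE) and the gamma-activated site (GAS).

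The 5 genes lie near each other on the minus strand of chromosome 1 (GRCh38, coordinates as deposited and equal to GENCODE 29), with other genes among them, such as PTGES3P1 between GBP1 and GBP2 and GBP7 overlapping GBP2. In order of position they are GBP3 (ENSG00000117226) at 89006666 to 89022894, GBP1 (ENSG00000117228) at 89052319 to 89065360, GBP2 (ENSG00000162645) at 89106132 to 89150456, GBP4 (ENSG00000162654) at 89181148 to 89198932, and GBP5 (ENSG00000154451) at 89258950 to 89272804. All are protein-coding genes.

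Promoter sequences from RefSeq (GRCh38.p14) were matched by symbol for 3 of the 5 members, GBP1, GBP3 and GBP4. They are shown because each holds the ISRE core searched for on both strands, which is GAAA, any 2 bases and again GAAA (TTTC, any 2 bases and TTTC on the other strand), and the GBP3 promoter also holds the GAS core TTCNNNGAA. Bases are counted from the RefSeq start site, which differs for all 3 from the gene start in the deposited coordinates above. By those coordinates the GBP1 match lies inside the gene and the GBP4 match wholly upstream of it. From the RefSeq start site, the GBP1 match lies upstream, at bases -127 to -118. That of GBP3 lies just past the RefSeq start site, at bases 3 to 12, and that of GBP4 spans it, from base -4 to base 6. The windows below are read 5′ to 3′ along the gene, with the matched letters in capitals. The first GBP3 window opens with the last AA of the GAS match, and the second ends with the first TT of the ISRE match.
GBP1 ISRE, chr1:89065316-89065345, minus strand: aacgaagtacTTTCAGTTTCatattactct
GBP3 ISRE, chr1:89022845-89022874, minus strand: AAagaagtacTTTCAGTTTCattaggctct
GBP3 GAS, chr1:89022863-89022892, minus strand: tactgagtcacTTCCTTGAAagaagtacTT
GBP4 ISRE, chr1:89198927-89198956, minus strand: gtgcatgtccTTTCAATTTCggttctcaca
The promoters of GBP1 and GBP3 share an identical run of 19 bases, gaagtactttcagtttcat, which contains the ISRE core. The longest run shared between GBP4 and either of them was 9 bases and held no ISRE core. The RefSeq promoters of the relatives GBP6 and GBP7 held neither core. Of all 35116 promoters in the RefSeq table, 3.57% held the ISRE core and 7.66% the GAS core. A match of letters is a description of the sequence and does not show binding.

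All 5 transcripts were lower in each group with OE-MMP28 cells than in control. GBP1 stood at 12.5% of its control mean in OE-MMP28 TAMs, GBP4 at 15.2% and GBP5 at 18.0%, whereas GBP3 kept 37.9% and GBP2 45.7%. With anti-IL-8 the members stood at 8.59% to 32.9% of their control means, and in the anti-VEGFA group at 11.1% to 41.4%. In bulk RNA, fewer cells with a transcript and less of it per cell cannot be told apart.

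**Figure D1:**
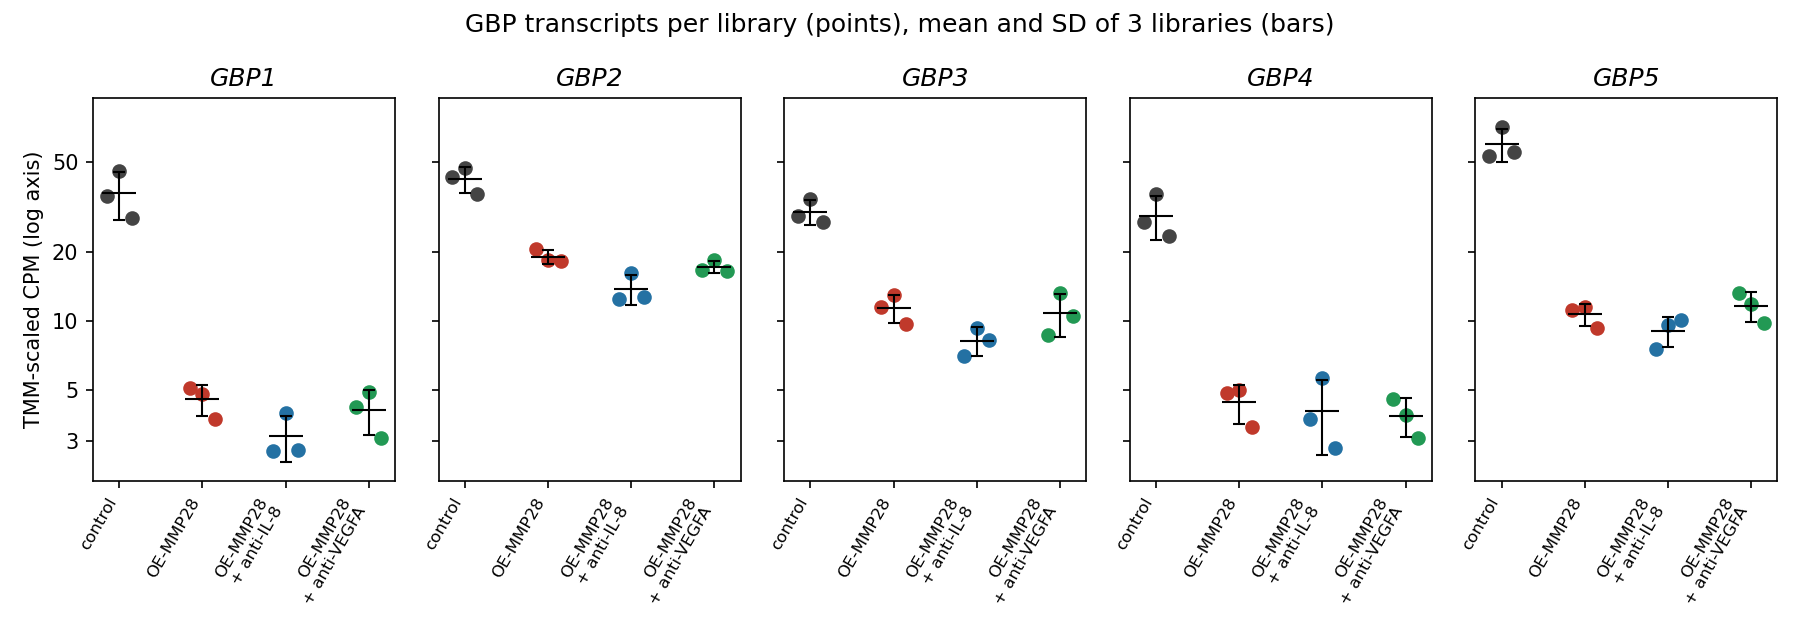
TMM-scaled CPM (log axis) of each GBP gene in each library, by group, with the mean and SD of 3 libraries as black bars. For all 5 genes the 3 control libraries sit above the 9 libraries with OE-MMP28 cells, with GBP1 at 28.4 to 45.6 CPM in control and at 2.70 to 5.11 CPM elsewhere.

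GBP1, the best studied member, binds bacterial lipopolysaccharide and starts the coat on bacteria in the cytosol. It had 601, 789 and 480 counts in control replicates 1 to 3, and 93, 82 and 60 in the OE-MMP28 libraries. With anti-IL-8 it had 42, 67 and 42 counts, and with anti-VEGFA 71, 77 and 58. The control libraries did not overlap any other library: the lowest was 5.56 times the highest of OE-MMP28 in CPM. Mean levels were 36.5 ± 8.62 CPM in control and 4.55 ± 0.715 in OE-MMP28 (SD, n = 3), a log2 fold change of -3.00 (SE 0.22). The means of the anti-IL-8 and anti-VEGFA groups were 3.13 ± 0.727 and 4.07 ± 0.907 CPM (SD, n = 3).

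GBP2 joins the coat through its own lipid anchor and, like GBP5, restrains the protease furin. In control libraries 724, 810 and 612 counts were found, against 376, 317 and 293 in OE-MMP28. They were 194, 273 and 196 with anti-IL-8 and 282, 293 and 312 with anti-VEGFA. GBP2 fell least, and the lowest control library was 1.75 times the highest of OE-MMP28. Its mean went from 41.9 ± 5.32 to 19.2 ± 1.31 CPM (SD, n = 3), a log2 fold change of -1.13 (SE 0.14). It was 13.8 ± 2.08 CPM with anti-IL-8, where all 3 libraries lay below all 3 of OE-MMP28, and 17.3 ± 1.10 with anti-VEGFA.

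GBP5 promotes assembly of the NLRP3 inflammasome and had the most counts of the family in control. These were 901, 1223 and 926, against 203, 198 and 150 in OE-MMP28. Anti-IL-8 libraries had 117, 162 and 156, and anti-VEGFA libraries 224, 188 and 184. Control did not overlap the other groups, which overlapped among themselves. The mean fell from 59.5 ± 9.65 to 10.7 ± 1.18 CPM (SD, n = 3), a log2 fold change of -2.47 (SE 0.17), and stood at 9.09 ± 1.37 with anti-IL-8 and 11.7 ± 1.76 in the anti-VEGFA group.

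GBP3 and GBP4 lack the CaaX box and enter coats that GBP1 has started. GBP3 had 492, 593 and 458 counts in control, compared with 210, 222 and 156 in OE-MMP28. In anti-IL-8 libraries it had 109, 158 and 128, and with anti-VEGFA 146, 210 and 198. As with GBP2, the control libraries were separate but closer to the rest, and those with anti-IL-8 lay below those of OE-MMP28. Its means were 30.1 ± 3.69 CPM in control, 11.4 ± 1.63 in OE-MMP28, 8.23 ± 1.18 with anti-IL-8 and 10.9 ± 2.34 in the anti-VEGFA group (SD, n = 3). The log2 fold change of OE-MMP28 against control was -1.40 (SE 0.17).

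GBP4 had 463, 622 and 399 counts in control, compared with 88, 85 and 55 in OE-MMP28. It had 58, 95 and 43 in the anti-IL-8 libraries, the widest relative spread of any member in any group (coefficient of variation 35.8%), and 77, 61 and 58 with anti-VEGFA. Control stood apart from the rest, within which the groups overlapped. Means were 29.0 ± 6.31, 4.41 ± 0.852, 4.05 ± 1.45 and 3.85 ± 0.741 CPM in the 4 groups in the same order (SD, n = 3). Between OE-MMP28 and control the log2 fold change was -2.71 (SE 0.24).

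Within groups, libraries tended to rank alike for the 5 genes. Control replicate 2 was the highest control library for 5 of 5 members, and OE-MMP28 replicate 3 the lowest of its group for 5 of 5. Anti-IL-8 replicate 2 was the highest of its group for 4 of 5. Over the 9 libraries with OE-MMP28 cells, Pearson's r between members ran from 0.287 (GBP3 and GBP4) to 0.894 (GBP1 and GBP2), and over all 12 libraries from 0.940 to 0.988. These points share libraries and depth, and the values over 12 include the difference from control.

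Per length, the order of the members changed. In the FPKM values that the authors deposited (scaled by gene length and library total), GBP5 at 7.22 ± 1.18, GBP1 at 7.22 ± 1.73, GBP3 at 6.92 ± 0.869 and GBP2 at 6.59 ± 0.864 were level in control, and GBP4 followed at 4.67 ± 1.03 (SD, n = 3). Across libraries each neighbour in that order overlapped the next, but within every control library GBP4 was the lowest. In OE-MMP28 the order was GBP2 at 3.02 ± 0.214, GBP3 at 2.63 ± 0.377, GBP5 at 1.30 ± 0.145, GBP1 at 0.901 ± 0.144 and GBP4 at 0.712 ± 0.139 FPKM (SD, n = 3). Across libraries GBP2 overlapped GBP3 and GBP1 overlapped GBP4, while GBP3 did not overlap GBP5 and GBP5 did not overlap GBP1. Within every OE-MMP28 library GBP1 was above GBP4, and in replicate 2 GBP3 was above GBP2. By group mean the same first 3 genes in the same order led both antibody groups, though GBP3 was above GBP2 in anti-VEGFA replicate 2.

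The summed level of the family was 32.6 ± 5.52 FPKM in control, 8.56 ± 0.889 in OE-MMP28, 6.49 ± 0.961 with anti-IL-8 and 8.06 ± 0.907 in the anti-VEGFA group (SD, n = 3). GBP1 made up 22.0% of that sum in control and 10.5% in OE-MMP28, while GBP2 went from 20.3% to 35.4% and GBP3 from 21.3% to 30.6%. GBP5 went from 22.2% to 15.2% and GBP4 from 14.2% to 8.27%. With anti-IL-8 and anti-VEGFA the share of GBP1 was 9.57% and 9.91%, and that of GBP2 33.8% and 33.9%.

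**Figure D2:**
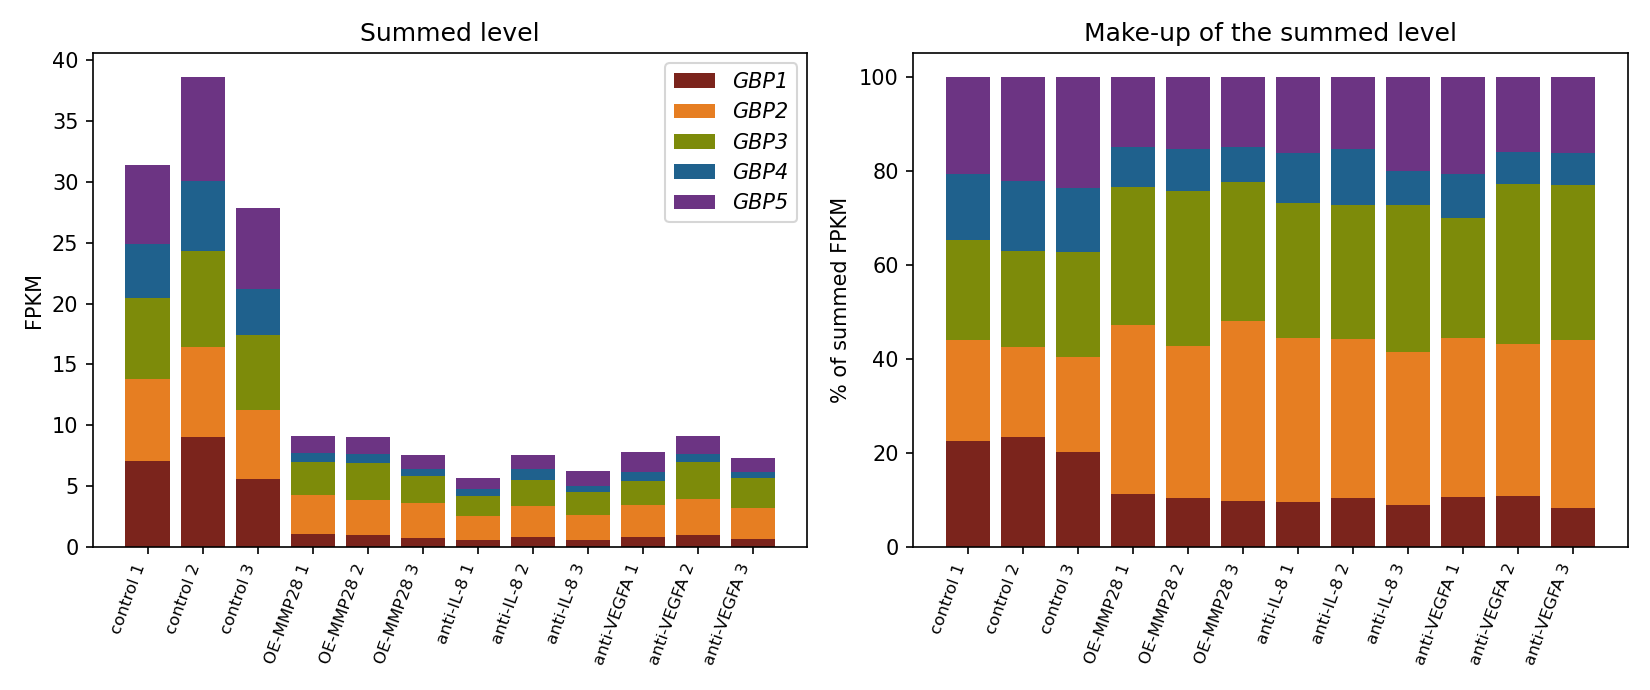
Left, summed FPKM of the 5 genes in each library, stacked by gene. Right, the same values as a percentage of each library's sum. The sum is 27.8 to 38.7 FPKM in control and 5.67 to 9.08 FPKM in the other 9 libraries, and GBP2 with GBP3 takes up more of it there.

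In the description against control, the libraries of OE-MMP28, anti-IL-8 and anti-VEGFA lay wholly below those of control for 5 of 5 members each, against 11.6%, 24.4% and 17.4% of all tested genes. Nothing is read from that count, since the members were chosen by this difference, and the 3 comparisons share the control libraries. The median log2 fold change of the 5 genes was -2.47 in OE-MMP28 (0.02 over all tested genes), -2.71 with anti-IL-8 (-0.02) and -2.35 in the anti-VEGFA group (0.00). Against control, GBP1 changed by -3.53 (SE 0.23) with anti-IL-8 and by -3.17 (SE 0.22) with anti-VEGFA, the most negative of the 5 in both.

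Whether neutralizing IL-8 or VEGFA changed the family beside OE-MMP28 cells was tested, since these comparisons did not choose the members. Both share the OE-MMP28 libraries with the one that did. With anti-IL-8 the 5 fitted differences from OE-MMP28 were below 0 (median over all tested genes -0.016), and none passed the adjusted threshold. Libraries tended to rank alike for the members, so these signs are not 5 separate observations. GBP2 gave -0.47 (SE 0.15, 95% interval -0.78 to -0.17), with a Benjamini-Hochberg adjusted p of 0.068 by edgeR's quasi-likelihood test. GBP3 gave -0.47 (SE 0.18, interval -0.85 to -0.09, adjusted p 0.104 by the same test) and GBP1 -0.54 (SE 0.24, interval -1.04 to -0.03, adjusted p 0.147). The values for GBP5 and GBP4 were smaller, at -0.24 (interval -0.60 to 0.12, adjusted p 0.367) and -0.12 (interval -0.65 to 0.41, adjusted p 0.780).

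In that comparison 0 of all tested genes (0%) passed the adjusted threshold in edgeR, where the smallest adjusted p was 0.063. At an unadjusted p of 0.05, GBP1, GBP2 and GBP3 were lower, against 15.9% of all tested genes. The libraries did not overlap for GBP2 and GBP3, against 15.3% of all tested genes in that direction. DESeq2 called 2259 of the 9824 genes to which it gave an adjusted p (23%), GBP2 among them (adjusted p 0.029). Without OE-MMP28 replicate 3, edgeR called 4125 of 16530 tested genes (25%). GBP2 (log2 fold change -0.49, adjusted p 0.031) and GBP3 (-0.56, adjusted p 0.043) were among them.

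With anti-VEGFA the differences from OE-MMP28 were small and had both signs. GBP1 gave -0.17 (interval -0.66 to 0.31), GBP2 -0.15 (-0.45 to 0.16), GBP3 -0.08 (-0.45 to 0.30) and GBP4 -0.21 (-0.74 to 0.33). GBP5 gave 0.12 (interval -0.23 to 0.48). Adjusted p lay between 0.606 and 0.848 by edgeR's quasi-likelihood test, no member passed an unadjusted p of 0.05 (18.8% of all tested genes did), and 0.343% of all tested genes were called. That background was 55 genes, and it went from 8 without OE-MMP28 replicate 2 to 1402 without OE-MMP28 replicate 3, with 0 members called in either. For every member the libraries of the 2 groups overlapped.

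Set against each other, anti-VEGFA TAMs had higher fitted levels than anti-IL-8 TAMs for 4 of 5 members (median log2 difference over all tested genes 0.018). None passed the adjusted threshold, where 0.199% of tested genes did. The log2 difference was 0.33 for GBP2 (interval 0.02 to 0.63, adjusted p 0.312), 0.40 for GBP3 (0.01 to 0.78, adjusted p 0.317), 0.36 for GBP1 (-0.15 to 0.87, adjusted p 0.488) and 0.36 for GBP5 (0.00 to 0.72, adjusted p 0.332). GBP4 gave -0.09 (interval -0.63 to 0.46, adjusted p 0.899). GBP2, GBP3 and GBP5 passed an unadjusted p of 0.05, as did 9.39% of tested genes in that direction, and GBP2 alone had libraries that did not overlap (11.3% of tested genes). These p-values are Benjamini-Hochberg adjusted and come from edgeR's quasi-likelihood test.

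**Figure D3:**
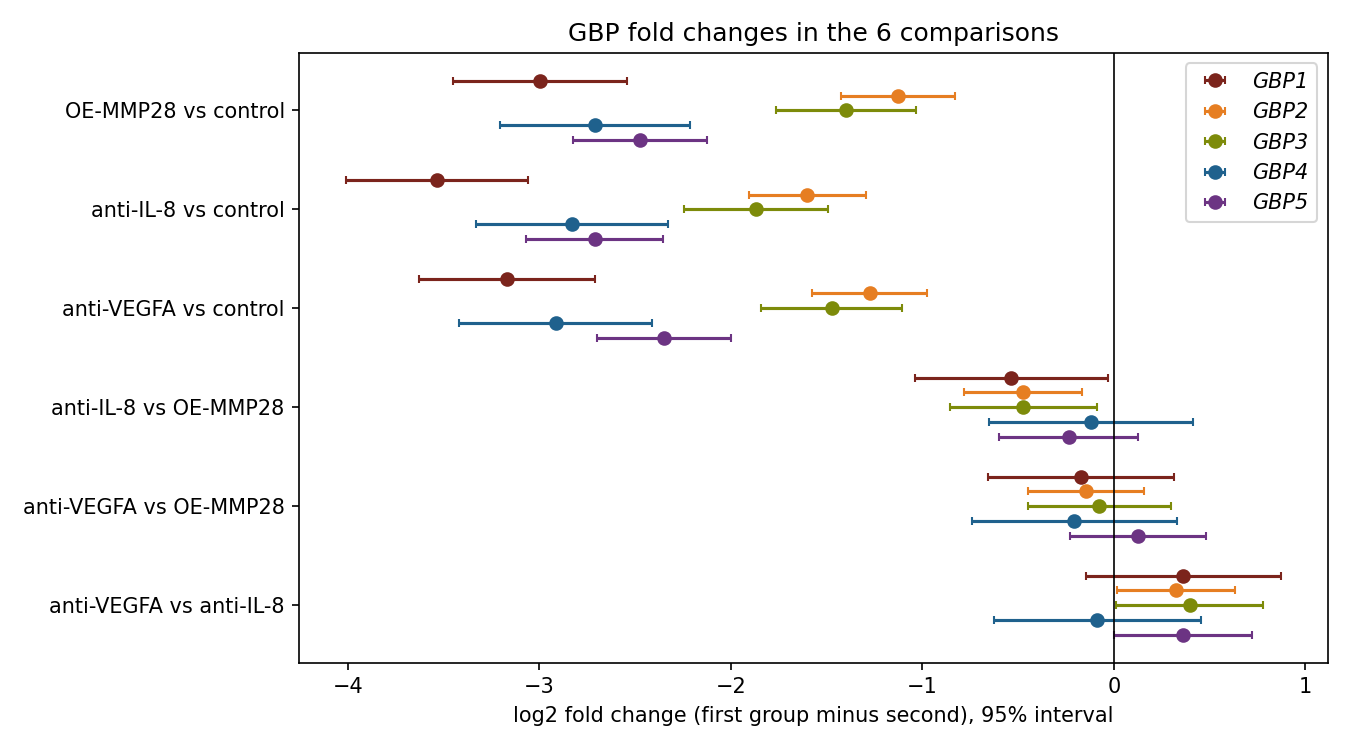
Log2 fold change (first group minus second) of each GBP gene in the 6 comparisons, with 95% intervals from edgeR's quasi-likelihood fit. The 3 comparisons with control lie between -3.53 and -1.13, and the 3 between groups with OE-MMP28 cells between -0.54 and 0.40.

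Some stretches of the members are shared with other genes. GBP2 shares 9.89% of its exonic bases with GBP7, whose exons overlap its own on the same strand, and GBP7 had at most 2 counts in any library. How reads in shared stretches were counted was not examined, so the low GBP7 counts do not measure how many reads were affected. Among stretches of 100 bases in the transcripts, 8.42% of those of GBP2 recur in GBP7, 1.09% of those of GBP1 in the pseudogene GBP1P1 and 0.0975% of those of GBP4 in CASP10. None of those of GBP3 or GBP5 recur in another gene. GBP3 shares 1.54% of its exonic bases with a small RNA gene of the same strand, which had 0 counts, and GBP4 and GBP5 share 2.25% and 3.98% with genes of the opposite strand, which had at most 5.

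The rest of the family was scarce. GBP6 and GBP7 had 0 to 2 counts per library and were not tested. GBP1P1 had 59, 79 and 45 counts in control, 6, 3 and 6 in OE-MMP28, 1, 2 and 0 in the anti-IL-8 group, and 2, 0 and 5 with anti-VEGFA. Its log2 fold change between OE-MMP28 and control was -3.58 (SE 0.49). That value is a description with no test, since GBP1P1 is of the same family and passed the filter only through its control counts. Its libraries did not overlap those of control in any group.

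Genes around the cluster did not pass the test between OE-MMP28 and control. Of 43 genes with an end within 1000 kb of the outermost members, 13 that are not of the family were tested, 8 of them protein-coding. Between OE-MMP28 and control 0 passed the adjusted threshold in edgeR, with log2 fold changes from -0.35 to 0.26, against 3.16% of all genes called in either direction. With anti-IL-8 against control 4 were lower (KYAT3 -0.60, RBMXL1 -0.64, LRRC8B -0.67 and LRRC8C -0.48), and with anti-VEGFA 1 was (KYAT3 -0.74), against 10.9% and 5.37% of all tested genes lower. None of the 13 passed in the comparisons among the OE-MMP28 groups.

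**Figure D4:**
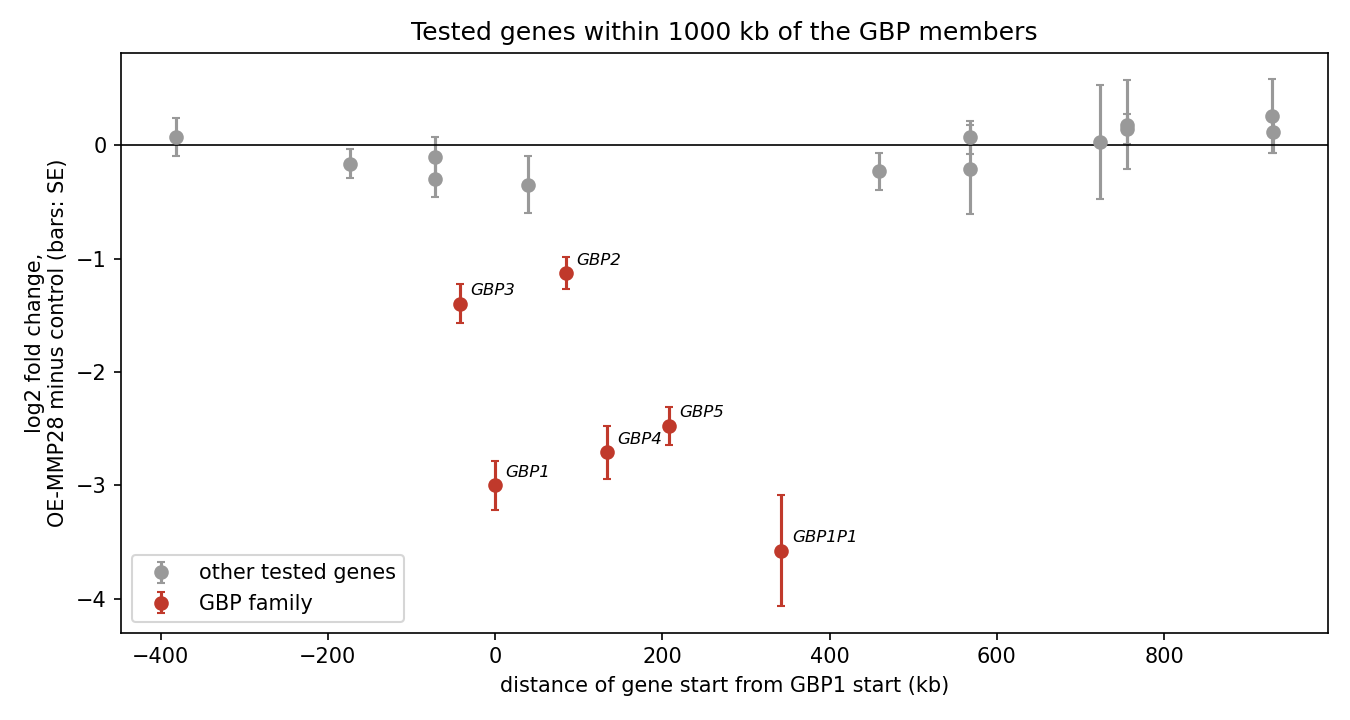
Log2 fold change between OE-MMP28 and control (bars, SE) against the distance of each tested gene's start from the GBP1 start. The GBP family (red) lies between -3.58 and -1.13 and the 13 neighbours (gray) between -0.35 and 0.26.

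Genes of the route from interferon to the GBPs fell in part. Of 15 listed, 13 were tested, and 4 were lower and 0 higher in OE-MMP28 than in control. The lists were chosen with earlier results of these data known, and this comparison is the one in which the family was found low. Calls of listed genes against control, here and below, therefore describe that pattern and are no separate support for it. STAT2, which joins IRF9 in the factor that binds the ISRE, ranged from 276.2 to 322.5 CPM in control and from 100.6 to 129.4 in OE-MMP28, so the groups did not overlap (log2 fold change -1.41, SE 0.14, adjusted p 3.6e-06 by edgeR's quasi-likelihood test). IRF9 changed by -0.90 (SE 0.21, adjusted p 0.018), IRF1 by -0.80 (SE 0.15, 0.0045) and the kinase JAK2 by -0.60 (SE 0.16, 0.048). The receptor chains IFNGR1 (0.34, adjusted p 0.171) and IFNGR2 (0.28, 0.317) did not pass the test, nor did the regulator IRF8 (-0.38, 0.235). STAT2 and IRF1 passed under all 22 alternatives, whereas the call of JAK2 was lost in 13 of them and that of IRF9 in 4. Without control replicate 1, 2 or 3 in turn both were lost and the count of lower genes was 2. Interferon-gamma itself (IFNG) had 0 counts in every library, which at this depth allows up to 0.195 CPM. Interferon-beta (IFNB1) had 5 to 13 counts in control and 0 to 6 in OE-MMP28.

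Partners of the GBPs in pathogen defence and pyroptosis followed the same direction where they passed the test. Of 14 listed and 13 tested genes, 5 were lower and 0 higher. AIM2, the sensor of cytosolic DNA that GBPs help to supply, went from 38.6 ± 8.71 to 6.98 ± 0.0170 CPM (SD, n = 3), a log2 fold change of -2.47 (SE 0.20, adjusted p 2.0e-07 by edgeR's quasi-likelihood test). The product of APOL3 attacks bacterial membranes exposed by GBP1. The apolipoprotein L genes changed by -1.53 for APOL3 (adjusted p 0.0073), -1.16 for APOL1 (5.9e-05) and -0.69 for APOL2 (0.012). The inflammatory protease CASP1 changed by -0.55 (adjusted p 0.016). CASP4, the lipopolysaccharide sensor that docks on GBP1 coats (-0.16, adjusted p 0.591), the pore former GSDMD (-0.44, 0.103) and the sensor NLRP3 (-0.24, 0.343) did not pass. IL1B and IL18, the cytokines that inflammasomes release, gave 0.09 and -0.01. AIM2 and APOL1 passed under all 22 alternatives, while without control replicate 2 or OE-MMP28 replicate 1 the count was 2, with APOL2, APOL3 and CASP1 lost.

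Among other GTPases of the same superfamily, 2 were lower and both are induced by interferon. Of 3 interferon-induced ones, MX1 (log2 fold change -3.95, SE 0.22, adjusted p 1.5e-09) and MX2 (-3.42, SE 0.20, 3.8e-09), both antiviral, were lower by edgeR's quasi-likelihood test, and the pseudogene GVINP1 gave -0.73 (adjusted p 0.607). Of 10 constitutive ones, such as dynamins, mitofusins and atlastins, 0 passed and the values ran from -0.63 to 0.30, with 1 at an unadjusted p under 0.05. The 6 enzymes that attach and process the lipid anchor of CaaX proteins also had 0 calls, with values from -0.08 to 0.10 and 0 at an unadjusted p under 0.05 (14.5% of all tested genes). Of 4 proteins that GBPs bind or restrain, RNF213, a giant ubiquitin ligase, was lower (-1.61, SE 0.22, adjusted p 1.1e-04), while FURIN (0.02), PIM1 (0.26) and TRAF6 (0.28) did not pass. Of all tested genes 2.64% were lower and 0.523% higher at that threshold. MX1 and MX2 were called in the comparison that singled out the family, so their calls are no separate support.

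Against control, the same lists had 5 of 13 interferon route genes lower with anti-IL-8 and 5 of 13 lower with anti-VEGFA, and 0 higher in either. Of the defence partners 5 were lower and 1 (NINJ1) higher with anti-IL-8, and 6 lower with anti-VEGFA. MX1, MX2 and RNF213 were lower with both, and the lipid anchor enzymes had 0 calls with either. The kinase PIM1 was higher with anti-IL-8 (0.57, adjusted p 0.0087 by edgeR's quasi-likelihood test). Of the constitutive GTPases, the dynamin DNM2 was higher with anti-IL-8 (0.55, adjusted p 0.0080), and the mitofusin MFN1 was lower with anti-IL-8 (-0.86, adjusted p 0.0016) and with anti-VEGFA (-0.73, adjusted p 0.0067). The background shares, in either direction, were 20.7% with anti-IL-8 and 11% in the anti-VEGFA group. With anti-IL-8 the share was 11.1%, 8.13% and 8.48% without control replicates 1, 2 and 3, and 7.94% and 8.23% without anti-IL-8 replicates 1 and 3. For anti-VEGFA it was 4.77%, 4.02% and 5.80% without the same control libraries and 6.70% without anti-VEGFA replicate 3. Between antibody groups and OE-MMP28, and between the antibody groups, 0 genes of these lists passed the adjusted threshold, and 5 of the interferon route genes passed an unadjusted p of 0.05 with anti-IL-8 and 5 in the anti-VEGFA group (29.3% and 18.8% of all tested genes).

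**Figure D5:**
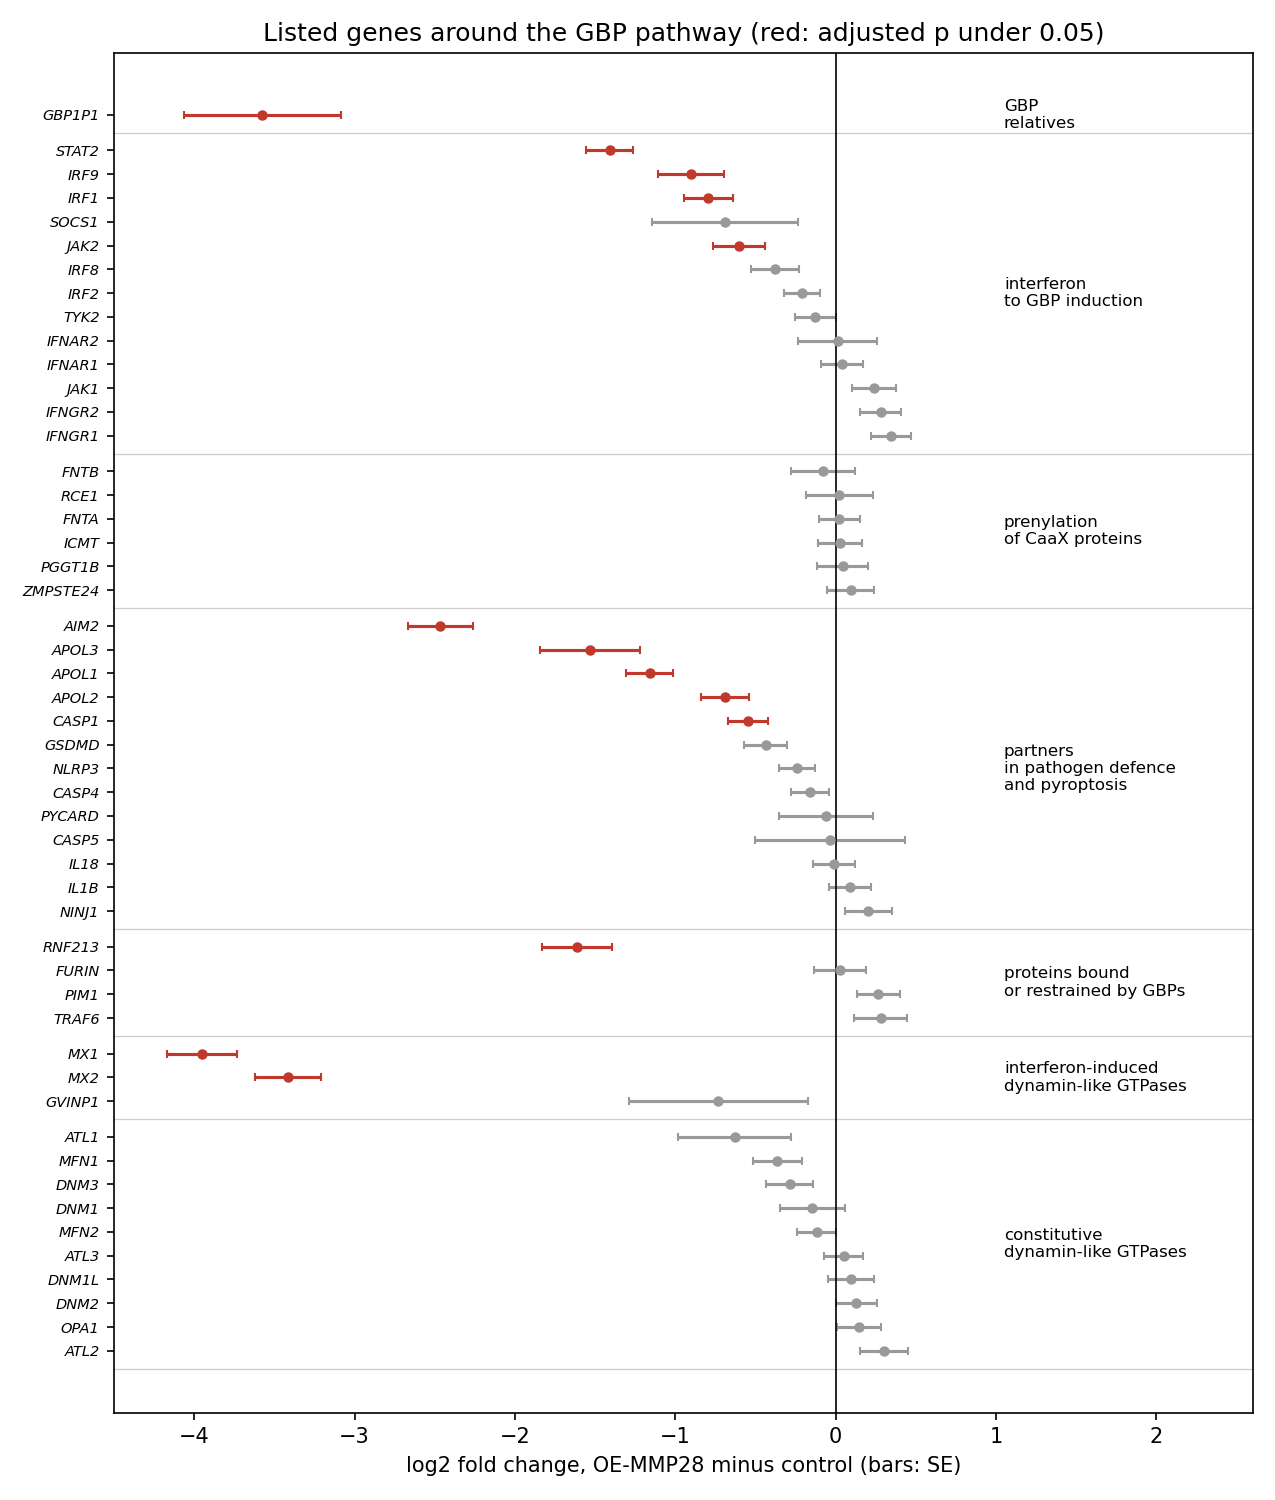
Log2 fold change between OE-MMP28 and control (bars, SE) of the tested genes of each list, red where the adjusted p of edgeR's quasi-likelihood test is under 0.05. For GBP1P1 the value is a description only, and its color is not read as a test. STAT2 at -1.41, AIM2 at -2.47, MX1 at -3.95 and RNF213 at -1.61 stand out to the left, while the lipid anchor enzymes stay between -0.08 and 0.10.

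Of the marker lists, 1 of 9 tested macrophage markers was higher in OE-MMP28 than in control, the lipopolysaccharide coreceptor CD14 (log2 fold change 0.80, SE 0.19, adjusted p 0.027 by edgeR's quasi-likelihood test). Against control, 4 of the 9 were higher and 0 lower with anti-IL-8, and 1 was higher and 0 lower with anti-VEGFA. Of all tested genes, 20.7% and 11% were called in either direction in these comparisons. Of 2 tested epithelial markers, MUC1 was lower in OE-MMP28 (-1.01, SE 0.25, adjusted p 0.034), at 28 to 33 counts against 57 to 65. Both calls were lost without any 1 control library, with log2 fold changes of 0.71 to 0.87 for CD14 and -1.05 to -0.96 for MUC1, and without OE-MMP28 replicate 1 (0.85 and -0.97). The call of MUC1 was also lost without OE-MMP28 replicate 2 (-0.94). That of CD14 was lost without OE-MMP28 replicate 3 (0.53) and with FPKM at either pseudocount (0.76). The part of these marker differences in the GBP values was not tested.

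Among 12049 protein-coding genes with at least 1 CPM, those closest to the mean log2 CPM of the 5 members over all 12 libraries were PLSCR1 (Pearson's r 0.999), TRIM5 (0.995), DDX58 (0.995), PARP9 (0.994) and PNPT1 (0.994). PLSCR1, a phospholipid scramblase, went from 238.2 ± 37.8 CPM in control to 61.2 ± 6.72 in OE-MMP28, 49.4 ± 7.11 with anti-IL-8 and 58.4 ± 5.77 in the anti-VEGFA group (SD, n = 3). Over the 9 libraries with OE-MMP28 cells alone, PLSCR1 (0.968) again came first, followed by PARP15 (0.955), MAP1B (0.954), PARP9 (0.953) and ZNF274 (0.952). These correlations describe libraries that share depth and groups, and the first set is carried by the distance from control.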

How the data were processed

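RNA of 12 TAM libraries (4 groups of 3, from the labels) had been sequenced. The read counts per gene and the FPKM values were made and deposited by the authors, whose processing notes name HISAT2 2.0.5 and featureCounts 1.5.0-p3. The genome build is not given in the sources used here, and the coordinates equal GENCODE 29 (GRCh38). The deposited group means, fold changes and p-values of the authors' own comparisons were not used.

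Counts were analysed in R 4.3.3 with edgeR 4.0.16: filterByExpr with the groups, TMM, and 1 quasi-likelihood fit of all 12 libraries (common dispersion 0.0231), with Benjamini-Hochberg adjustment within each of the 6 comparisons at 0.05. Whether libraries repeat each other was checked, and 0 pairs held identical values. FPKM served only to compare levels between genes. The named genes are the members, listed genes that passed the filter, neighbours within 1000 kb and the 5 genes closest in pattern. The members and lists were chosen with earlier results of these data known. One gene of the interferon route is not reported here. Alternatives were DESeq2 1.42.0, limma 3.58.1 (voom, and FPKM with pseudocounts of 1 and 0.1), library totals, other filters, a block for the replicate number, fits restricted to 2 groups, an unadjusted threshold and each library left out. The fits were tested on simulated data. Figures were drawn in Python 3.11.15 with matplotlib 3.10.9.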

Additional observations from a re-analysis of the deposited data

How the results depend on the processing

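The number of members called was 0 for anti-VEGFA against OE-MMP28 under every alternative run. For anti-IL-8 against OE-MMP28 it was 0 (0% of all tested genes), 1 with DESeq2 (23%) and 3 at the unadjusted threshold (29.3%). When single libraries were left out it was 0 to 2, the 2 without OE-MMP28 replicate 3 (25%). Without that library and anti-VEGFA replicate 2 together, an alternative chosen after seeing the data, it was 3 (GBP1 -0.65, adjusted p 0.045; GBP2 -0.50, 0.017; GBP3 -0.57, 0.015), and 31.6% of all tested genes were called. For anti-VEGFA against anti-IL-8 it was 0, and 3 at the unadjusted threshold, all higher (9.39% of all tested genes in that direction). The cause was not tested. The fold changes of single members under alternatives numbered 660, including those against control, which are not tested and cannot gain a call. Of the rest, 6 gained a call, all for anti-IL-8 against OE-MMP28. There GBP1 was called in 1, GBP2 in 3 and GBP3 in 2 of 22 alternatives. Against control, where members are not tested, 15 values moved by more than the SD between replicates, all toward 0 with a pseudocount of 1 on FPKM, which understates the change of low genes. Values that did not pass changed sign in places: GBP3 kept its sign in 20 of 22 alternatives for anti-VEGFA against OE-MMP28, and GBP4 in 21 for anti-IL-8 against OE-MMP28 and in 20 between the antibody groups. The median of the members ranged from -0.57 to -0.23 for anti-IL-8 against OE-MMP28 and from -0.35 to -0.05 for anti-VEGFA against OE-MMP28.

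The lists were refitted under the same alternatives between OE-MMP28 and control, chosen after seeing the data. With single libraries left out, the count called was 2 to 4 for the interferon route, 2 to 5 for the defence partners, and 0 to 1 for the epithelial and macrophage markers. For the macrophage markers it was 0 with FPKM at either pseudocount and 0 without the 2 libraries farthest out. GBP1P1 did not pass a minimum of 10 counts in every library. Of all tested genes, 1.79% (without control replicate 1) to 3.89% (without anti-VEGFA replicate 2) were called with single libraries left out. The other lists and the 13 neighbours kept their counts within 1.5 times.

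The labels do not say whether the replicate numbers pair the libraries. Of 18 correlations between deviations of same-numbered libraries, 4 were over 0.1 (range -0.16 to 0.24). With 3 libraries a group these values cannot decide whether there is a pairing. With the replicate number as a block, 0 members were called in the 3 comparisons among groups with OE-MMP28 cells, while calls over all genes for anti-IL-8 against OE-MMP28 went from 0 to 795. For that comparison the count over all genes was also 1438 without a filter and 1166 without anti-VEGFA replicate 2. At this depth, transcripts under about 3 counts, such as IFNG, GBP6 and GBP7, cannot be compared.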
